A study of Mus musculus with 20 samples.

Results

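NF-kB subunits and feedback inhibitors were analyzed in dCAMs, the CNS-associated macrophages that live in the dura mater. The set was given by symbol and holds 10 of the 33243 genes in the count table: Nfkb1, Nfkb2, Relb, Nfkbia, Nfkbie, Nfkbiz, Tnfaip3, Tnip1, Bcl3 and Zc3h12a. All 10 were found and all 10 passed the filter of a total of at least 10 counts, as did 16632 genes in all. The dCAMs came from Ccr2creERT2/+ R26tdT/tdT mice, in which tamoxifen activates a Cre recombinase driven by the Ccr2 locus and so switches on the red protein tdTomato (tdT) in cells with active Ccr2, such as monocytes, and in all their progeny. Every mouse, controls included, first received BLZ945, an inhibitor of CSF1R that depletes macrophages, for 7 days at 200 mg per kg, and tamoxifen at 2 mg per day around its end. After 8 weeks the mice were injected with lipopolysaccharide (LPS) of bacteria at 2.5 mg per kg or with PBS (CTL), and the dura was harvested 12 h later. CD45int CD11b+ CD206int-high cells were sorted from enzymatically digested dura into a tdT+ and a tdT- library per mouse, which gave 20 libraries in 4 groups of 5 (tdT- CTL, tdT- LPS, tdT+ CTL and tdT+ LPS). The labels give no age of the mice, and a tdT- cell may be one that escaped recombination, so tdT marks a history of Ccr2 expression in the positive cells only.

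NF-kB factors are dimers of subunits such as p50 (from Nfkb1), p52 (from Nfkb2) and RelB. They are held in the cytoplasm by inhibitors of the IkB family and enter the nucleus when a receptor such as the LPS receptor TLR4 activates the IKK kinases. Many of their target genes encode brakes on the same pathway: IkB proteins that recapture the dimers, A20 (Tnfaip3) and its partner ABIN1 (Tnip1) that act on ubiquitin chains upstream of the kinases, and Regnase-1 (Zc3h12a) that degrades inflammatory mRNAs. In macrophages these brakes shape how long an LPS response lasts.

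Library totals were 6017650 to 12208203 counts in CTL and 12073566 to 18925908 in LPS, so that depth went with treatment. In a fit on libraries thinned to 6017650 counts each, Tnfaip3 (log2 fold changes 1.17 in tdT- and 1.60 in tdT+ dCAMs) and Nfkbiz (-1.40 and -1.09) were called as in the full data. The 5823 genes whose mean log2 CPM was 4 or more served as a check of low counts. At most 0.0515% of them had 3 counts or fewer in an LPS library and 0.103% to 0.635% in a tdT+ CTL library, but 1.72% to 14.9% did in a tdT- CTL library. The tdT- CTL libraries of mice 174 and 179 stood apart most, at 14.8% and 14.9%, and the calls of single genes of the set are given without these 2 libraries where they change. For cell type markers CPM are counts scaled by the total of the library, and elsewhere counts scaled to a common library size by TMM. Macrophage markers (10 of 10 in the table) summed to 5732 to 12927 CPM in tdT- CTL, 6031 to 7466 in tdT- LPS, 13812 to 17080 in tdT+ CTL and 7338 to 9718 in tdT+ LPS, with none at the floor of 3 counts throughout a group. The macrophage sum thus moved with treatment in tdT+ dCAMs, without overlap. Its members did not all move alike there. Mean Csf1r fell from 6222 to 1381 CPM and Mrc1 from 2923 to 1037 CPM. Itgam rose from 197 to 1034 CPM and Pf4 from 1698 to 2128 CPM, and all other members had lower means in LPS. Fibroblast markers (4 of 4) reached 3869 CPM in 1 tdT- CTL library, against at most 350 CPM in any library of the other groups. The part of these differences in the results was not tested. In a sorted bulk sample, fewer cells of a type and less RNA per cell cannot be told apart.

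After LPS, Tnfaip3 rose and Nfkbiz fell in both populations, and these were the only calls among the 10 genes in either population. A call required an adjusted p under 0.05 in edgeR's quasi-likelihood test, with Benjamini-Hochberg adjustment over all genes tested, and an absolute log2 fold change over 1. Among all genes tested 7.2% were called higher and 4.27% lower in tdT- dCAMs, and 3.37% and 2.52% in tdT+ dCAMs. Among the better expressed genes, the 5823 named above, these shares were 5.75% and 8.54% in tdT- and 5.19% and 5.6% in tdT+ dCAMs. With 1 of 10 genes called in each direction, the count of calls was close to these shares. The median log2 fold change of the 10 genes was 0.56 in tdT- and 0.35 in tdT+ dCAMs, beside 0.022 and 0.0084 over all genes tested.

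**Figure D1:**
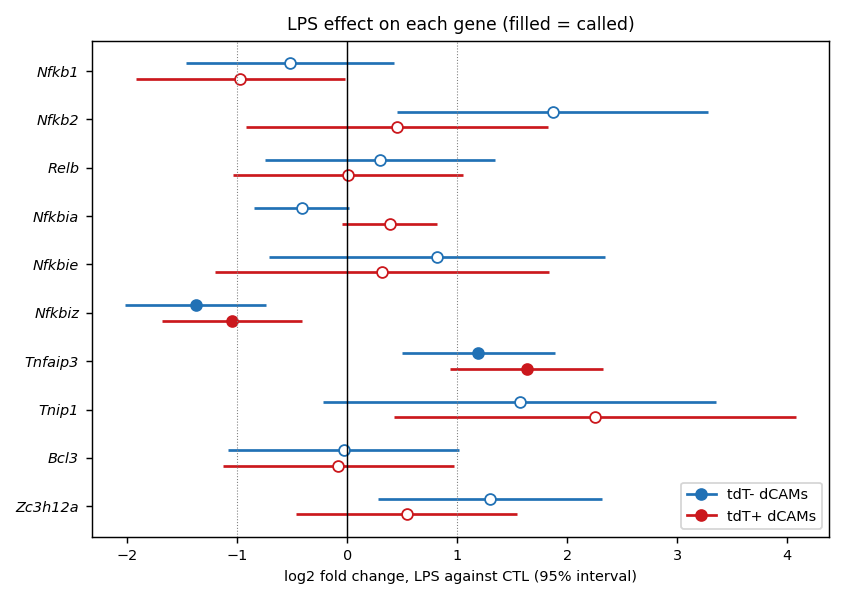
Log2 fold change of each gene, LPS against CTL, in tdT- (blue) and tdT+ (red) dCAMs, with 95% intervals from the edgeR fit over 20 libraries and filled points for called genes. Tnfaip3 (1.19 and 1.63) and Nfkbiz (-1.38 and -1.05) are filled in both populations, and the widest intervals are those of Tnip1.

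The promoters of the members were searched for the motif of NF-kB itself. Many target genes of NF-kB encode brakes on it, as said above, so the motif is not independent of the choice of genes. Nfkb1, Relb and Nfkbiz had no promoter listed. RefSeq promoters (GRCm38.p6, 250 bases before to 50 after a start) were listed for 7 of the 10 genes, and 6 of these 7 held the kappaB consensus, the motif bound by NF-kB dimers, searched on both strands. It was present in at least 1 promoter of 9.55% of all genes listed, and of all 32851 promoters of this length 8.46% held it. Among the other genes of the pathway it was found in 8 of 34 with a promoter listed, and among known NF-kB target genes in 7 of 19. The 5 stretches below are the 130 bases before the start, 5′ to 3′ on the strand of the gene, shown because the matches lie close to the start. Capitals mark the matches, which overlap each other in Tnip1 and in the first run of Nfkb2.
Tnfaip3, chr10:19015411-19015540, minus strand: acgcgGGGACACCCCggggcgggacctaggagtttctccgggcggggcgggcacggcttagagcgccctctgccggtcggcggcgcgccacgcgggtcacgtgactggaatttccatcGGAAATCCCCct
Tnip1, chr11:54962941-54963070, minus strand: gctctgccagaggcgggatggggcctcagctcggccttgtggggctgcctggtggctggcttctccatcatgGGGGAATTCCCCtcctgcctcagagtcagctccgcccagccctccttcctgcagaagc
Nfkbia, chr12:55492648-55492777, minus strand: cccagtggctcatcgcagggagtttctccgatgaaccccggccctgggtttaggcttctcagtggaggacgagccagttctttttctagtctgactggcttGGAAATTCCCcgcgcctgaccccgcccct
Nfkb2, chr19:46304607-46304736, plus strand: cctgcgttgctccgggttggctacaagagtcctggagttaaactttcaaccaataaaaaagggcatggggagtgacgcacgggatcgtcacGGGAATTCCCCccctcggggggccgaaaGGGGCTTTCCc
Nfkbie, chr17:45555570-45555699, plus strand: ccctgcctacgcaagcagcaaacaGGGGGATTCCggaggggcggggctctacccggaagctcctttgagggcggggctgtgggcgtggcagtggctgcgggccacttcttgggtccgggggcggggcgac
In Tnfaip3 the matches begin at positions -125 and -12 from the start, in Nfkbia at -29, in Nfkbie at -106, in Nfkb2 at -39, -38 and -11, and in Tnip1 at -58, -57 and -56. Bcl3 held 1 match just after its start, GGGAAGTCCC at position 3. The listed promoter of Zc3h12a held none, nor did the second listed start of Tnfaip3. A match is a description of letters and was not tested for binding.

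Tnfaip3 (chromosome 10, 19000910 to 19015657, minus strand), the ubiquitin-editing enzyme A20, gave 474, 646, 364, 1264 and 439 CPM in the tdT- CTL libraries of mice 174, 175, 177, 178 and 179, the order kept below. The tdT- LPS libraries of mice 54, 56, 59, 60 and 61 gave 1374, 1483, 1587, 974 and 1871 CPM. Only the high CTL library of mouse 178 reached into the LPS range. None of the 10 genes had all its tdT- LPS libraries above all its tdT- CTL libraries, which held for 9.32% of genes tested. Among the 5823 better expressed genes, CTL and LPS did not overlap, in either direction, for 990 in tdT- and 1909 in tdT+ dCAMs. Over all 16632 genes tested these counts were 2101 and 2962. Mean levels of 637 ± 365 and 1458 ± 327 CPM (± SD, 5 libraries each) corresponded to 1.19 ± 0.33 (± SE) as log2 fold change, with an edgeR adjusted p of 0.0207. In tdT+ dCAMs the CTL libraries gave 268, 674, 585, 911 and 333 CPM and the LPS libraries 1530, 1849, 2074, 1152 and 1977 CPM, without overlap. The rise from 554 ± 261 to 1717 ± 377 CPM was 1.63 ± 0.34 on the log2 scale (edgeR adjusted p = 0.00306). The call in tdT- dCAMs was kept in 12 of 20 alternatives. It was lost without CTL mouse 177 (edgeR adjusted p = 0.0565), LPS mouse 56 (0.0503), 59 (0.053) or 61 (0.0665). Without the 2 tdT- CTL libraries named above (log2 fold change 0.93, edgeR adjusted p = 0.102) and with the compared libraries alone (1.19, 0.0533) it was lost too. So it was in limma-voom, with the mouse as a block (1.29, limma adjusted p = 0.0865) and with quality weights (1.24, 0.233). In tdT+ dCAMs the call held in each of these fits.

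Tnip1 (chromosome 11, 54910785 to 54962917, minus strand), which encodes the A20-binding protein ABIN1, had the largest LPS fold of the 10 genes in tdT+ dCAMs but missed the adjusted p. The tdT+ CTL libraries gave 56.5, 30.5, 14.5, 36.4 and 58.3 CPM and the LPS libraries 145, 173, 231, 131 and 256 CPM. Every LPS library lay above every CTL library, as for 10.6% of all genes tested in this direction. Without regard to direction, such separation was more common among the better expressed genes, as given above. The means were 39.2 ± 18.4 and 187 ± 54.3 CPM (log2 fold change 2.25 ± 0.88, 95% interval 0.43 to 4.08, edgeR adjusted p = 0.151). In tdT- dCAMs the CTL libraries scattered from 0 counts (mouse 179) over 12.5, 37.7 and 44.3 to 215 CPM (mouse 174), and the LPS libraries gave 135 to 242 CPM (1.57 ± 0.86, edgeR adjusted p = 0.222). The 2 extreme CTL values came from the 2 libraries named above. Without them Tnip1 passed in tdT- dCAMs (2.53, edgeR adjusted p = 0.000885) and in tdT+ dCAMs (2.23, adjusted p = 0.000395), and it passed in tdT+ dCAMs when those 10 libraries were fitted alone (2.25, edgeR adjusted p = 0.000565). Leaving out mouse 174 alone gave a call in tdT- dCAMs (2.94, edgeR adjusted p = 0.0239) and leaving out mouse 179 alone one in tdT+ dCAMs (2.44, adjusted p = 0.0167). Over all fits without 1 mouse the value ran from 1.25 to 2.94 in tdT- and from 2.04 to 2.44 in tdT+ dCAMs. Of the 20 alternatives, 3 called Tnip1 in tdT- and 4 in tdT+ dCAMs.

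Nfkbiz (chromosome 16, 55811375 to 55838899, minus strand), a nuclear IkB protein that works as a cofactor at secondary response genes, moved the other way. In tdT- dCAMs the CTL libraries gave 820, 1000, 754, 2358 and 746 CPM and the LPS libraries 501, 521, 461, 263 and 439 CPM. All LPS libraries lay below all CTL libraries, as for 3.31% of genes tested in this direction. Here, too, separation in either direction was more common among the better expressed genes. The means fell from 1136 ± 691 to 437 ± 103 CPM (log2 fold change -1.38 ± 0.31, edgeR adjusted p = 0.00439). In tdT+ dCAMs the CTL libraries gave 615, 1174, 1457, 1712 and 1246 CPM and the LPS libraries 624, 649, 606, 436 and 690 CPM, so that only the CTL library of mouse 174 reached the LPS range. None of the 10 genes lay lower without overlap in tdT+ dCAMs, beside 7.19% of genes tested. Here the means were 1241 ± 408 and 601 ± 97.6 CPM (-1.05 ± 0.30, edgeR adjusted p = 0.0416). Both calls were near a limit. In tdT- dCAMs the fold fell short without CTL mouse 178 (-0.90, edgeR adjusted p = 0.0185), and in tdT+ dCAMs the call was lost when any mouse but 174 was left out (-0.92 to -1.10, adjusted p between 0.026 and 0.104).

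Set against each other within a library, Nfkbiz and Tnfaip3 separated the treatments more cleanly than either gene alone. Per kilobase of exon, Nfkbiz exceeded Tnfaip3 in 10 of 10 CTL libraries, by a ratio of 1.72 to 2.30 in tdT- and of 1.93 to 4.15 in tdT+ dCAMs. After LPS it was below Tnfaip3 in 10 of 10 libraries, with ratios of 0.261 to 0.405 in tdT- and of 0.324 to 0.453 in tdT+ dCAMs. The highest ratio after LPS, 0.453, was thus well under the lowest in CTL, 1.72. The ratio needs no scaling between libraries. It was chosen after the values were seen and is given as a description with no test.

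**Figure D2:**
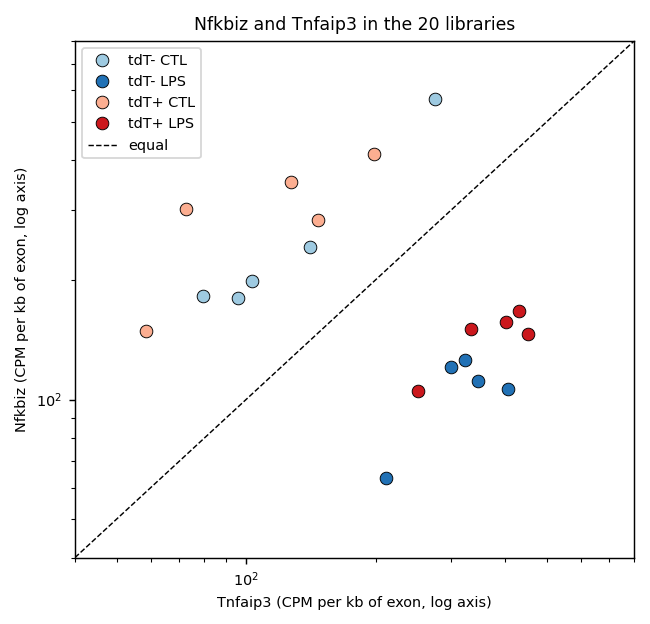
Nfkbiz against Tnfaip3, both in CPM per kb of exon on log axes, 1 point per library and 1 color per group, with a dashed line of equal values. The 10 CTL libraries lie above the line (ratios 1.72 to 4.15) and the 10 LPS libraries below it (0.261 to 0.453), in both populations.

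Bcl3 (chromosome 7, 19808462 to 19822770, minus strand), the other nuclear IkB protein of the set and a partner of p50 and p52 homodimers, was not called. It averaged 84.0 ± 56.4 and 82.1 ± 11.1 CPM in tdT- CTL and LPS (log2 fold change -0.03 ± 0.51) and 96.5 ± 43.9 and 91.3 ± 24.6 CPM in tdT+ (-0.08 ± 0.51). The 95% intervals, -1.09 to 1.02 and -1.13 to 0.97, leave room for a change in either direction. Its exons share 55 bases with a gene on the opposite strand, and the strand setting of the counting is not given in the sources used here.

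Nfkbia (chromosome 12, 55489410 to 55492647, minus strand), the classical inhibitor IkBα, was the most abundant of the 10 genes per kilobase of exon in every group and was not called after LPS. In tdT- dCAMs CTL libraries gave 1463, 1325, 2185, 2462 and 2665 CPM and LPS libraries 1748, 1534, 1467, 1186 and 1638 CPM (log2 fold change -0.42 ± 0.21, edgeR adjusted p = 0.181). In tdT+ dCAMs CTL libraries gave 685, 1082, 1255, 1462 and 954 CPM and LPS libraries 1538, 1295, 1504, 1069 and 1704 CPM (0.39 ± 0.21, edgeR adjusted p = 0.324). The groups overlapped in both populations and the estimates had opposite signs. Nfkbie (chromosome 17, 45555703 to 45563169, plus strand), which encodes IkBε, a further cytoplasmic inhibitor, averaged 67.3 ± 10.6 CPM in tdT+ CTL and 83.9 ± 6.06 CPM in tdT+ LPS (0.32 ± 0.73). In tdT- CTL it ranged from 1.37 and 2.95 CPM (mice 174 and 177) to 194 CPM (mouse 178), beside 81.6 to 157 CPM in tdT- LPS (0.82 ± 0.74, edgeR adjusted p = 0.483). Without mouse 178 the tdT- value was 1.71 (edgeR adjusted p = 0.146), and over all fits without 1 mouse it ran from 0.48 to 1.71.

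Of the subunits, none passed in either population in the edgeR fit over all 20 libraries. DESeq2 and the limma-voom fit with the mouse as a block called Nfkb2 higher in tdT- dCAMs, as given below. Nfkb2 (chromosome 19, 46304320 to 46312385, plus strand), the precursor of p52, gave 9.10, 86.0, 1.60, 6.66 and 61.8 CPM in tdT- CTL and 138, 89.0, 147, 83.4 and 146 CPM in tdT- LPS. The CTL libraries of mice 174, 177 and 178 lay far under all others, and that of mouse 175 reached into the LPS range. The log2 fold change was 1.87 ± 0.68 (edgeR adjusted p = 0.0754). Without CTL mouse 175, the one that overlapped, it passed (2.63, edgeR adjusted p = 0.0171). Over all fits without 1 mouse it ran from 1.56 to 2.63, and 3 of 20 alternatives called it. In tdT+ dCAMs the means were 70.2 ± 22.6 and 96.1 ± 27.6 CPM (0.45 ± 0.66, edgeR adjusted p = 0.832). Of the 4221 exon bases of Nfkb2, 830 are shared with genes on the opposite strand, so part of its counts may belong to them. Nfkb1 (chromosome 3, 135584655 to 135691547, minus strand), the precursor of p50, gave means of 84.5 ± 63.3 and 58.8 ± 13.4 CPM in tdT- CTL and LPS (-0.52 ± 0.45) and of 87.9 ± 34.8 and 44.7 ± 8.84 CPM in tdT+ (-0.97 ± 0.46, edgeR adjusted p = 0.241). Relb (chromosome 7, 19606217 to 19629438, minus strand), the partner of p52 in the alternative pathway, gave 72.2 ± 51.2 and 88.6 ± 21.5 CPM in tdT- (0.30 ± 0.50) and 65.8 ± 16.7 and 66.2 ± 21.2 CPM in tdT+ dCAMs (0.01 ± 0.50).

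Per kilobase of exon Nfkb2 exceeded Nfkb1 in 10 of 10 LPS libraries, by a ratio of 1.65 to 2.52. In CTL it did so in 4 of 10, with ratios of 0.399 to 1.11 in tdT+ and from 0.0499 to 2.56 in tdT- dCAMs. This ratio, too, was chosen after the values were seen and was not tested.

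Zc3h12a (chromosome 4, 125118423 to 125127840, minus strand), the endoribonuclease Regnase-1, gave 5.31, 30.1, 28.7, 28.0 and 109 CPM in tdT- CTL and 119, 86.1, 113, 68.3 and 108 CPM in tdT- LPS. Only mouse 179 reached the LPS range (log2 fold change 1.30 ± 0.49, edgeR adjusted p = 0.0835). Without this mouse the gene passed (2.10, edgeR adjusted p = 0.00161), as it did without the 2 tdT- CTL libraries named above (1.76, adjusted p = 0.000158). Over all fits without 1 mouse it ran from 0.99 to 2.10, and 4 of 20 alternatives called it. In tdT+ dCAMs it averaged 71.6 ± 14.3 and 104 ± 21.2 CPM (0.54 ± 0.48, edgeR adjusted p = 0.640).

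**Figure D3:**
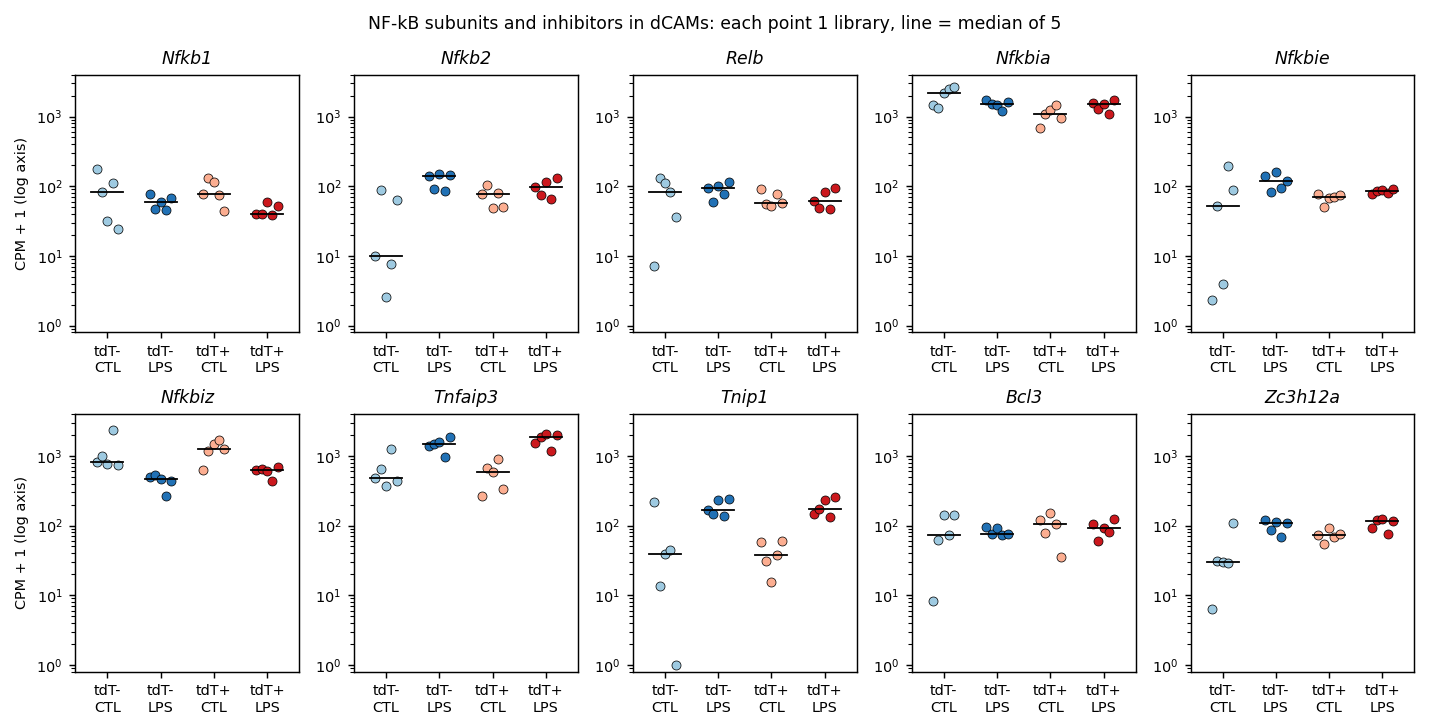
CPM + 1 of the 10 genes on log axes, 1 point per library, in the groups tdT- CTL, tdT- LPS, tdT+ CTL and tdT+ LPS, with a line at the median of 5. The tdT- CTL points of Nfkb2 (1.60 to 86.0 CPM), Nfkbie (1.37 to 194 CPM) and Tnip1 (0 to 215 CPM) scatter widely, while the points of each LPS group lie closer together.

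The scatter in tdT- CTL touched most of the 10 genes. The SD of their log2 CPM had a median of 1.63 in the tdT- and 0.52 in the tdT+ libraries of CTL mice, and of 0.36 and 0.33 in those of LPS mice. Over the 2597 genes whose mean log2 CPM reached that of the lowest of the 10, the corresponding medians were 0.83, 0.33, 0.21 and 0.21. In tdT- dCAMs the fit with the mouse as a block, in limma-voom, called 4 genes higher instead of 1, namely Nfkb2 (log2 fold change 3.07, limma adjusted p = 0.00365), Nfkbie (2.39, 0.0248), Tnip1 (3.87, 0.0145) and Zc3h12a (1.82, 0.00942). That fit moved the median of all genes to 0.76, and relative to it the values were 2.31, 1.63, 3.10 and 1.06. It differed from the main fit in both the method and the block, and the part of each was not tested. The correlation between the libraries of a mouse was 0.041 in it. Voom with quality weights and no block moved the median to 0.68 and gave 3.06 for Nfkb2 (limma adjusted p = 0.0703). It called 0 of the 10 genes higher. DESeq2 called Nfkb2 (1.80, DESeq2 adjusted p = 0.0396) and Zc3h12a (1.26, 0.0488) beside Tnfaip3.

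Per kilobase of exon, the order of levels differed between the treatments. In both CTL groups Nfkbia (1280 ± 379 CPM per kb in tdT- and 689 ± 187 in tdT+), Nfkbiz (274 ± 167 and 300 ± 98.6) and Tnfaip3 (139 ± 79.5 and 121 ± 56.8) led, and each of the first 2 exceeded the next in 5 of 5 libraries. In both LPS groups the order was Nfkbia (960 ± 134 and 901 ± 155), Tnfaip3 (317 ± 71.2 and 374 ± 81.9), Nfkbiz (106 ± 24.8 and 145 ± 23.6) and Tnip1 (60.5 ± 16.5 and 61.8 ± 17.9), with each of the first 3 above the next in 5 of 5 libraries. The genes below these lay close together. Nfkb1 was lowest in both LPS groups (14.3 ± 3.25 and 10.8 ± 2.14 CPM per kb), under Nfkb2 in 5 of 5 libraries of each. In tdT+ CTL Relb (29.7 ± 7.54), Nfkbie (27.7 ± 4.34) and Zc3h12a (26.0 ± 5.19) did not differ beyond their spread, nor did Nfkb1 (21.3 ± 8.44) and Nfkb2 (16.6 ± 5.35).

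Between the populations 0 of the 10 genes were called in CTL mice, beside 4.28% of all genes in either direction. At an unadjusted p under 0.05 there was 1, Nfkbia, and DESeq2 also called 0. Among the 5823 better expressed genes, 856 had the same sign in 5 of 5 CTL mice, in either direction. Nfkbia was lower in the tdT+ library of 5 of 5 CTL mice, as were 3.61% of all genes, with means of 1087 ± 295 CPM against 2020 ± 599 CPM in the tdT- libraries. Its log2 difference of -0.89 ± 0.21 had an edgeR adjusted p of 0.0142 but did not reach the required size. That p was 0.0729 without CTL mouse 179, 0.051 without LPS mouse 54 and 0.237 when the CTL libraries were fitted alone. In CTL mice Zc3h12a gave a difference of 0.83 ± 0.48 (edgeR adjusted p = 0.316), which passed without mouse 179 (1.62, adjusted p = 0.0262) and without both libraries named above (1.32, 0.00475). These were the only 2 of 20 alternatives that called it, and without 1 mouse it ran from 0.54 to 1.62. The within-mouse difference of Tnip1 in mouse 179, far above the others, rests on a tdT- library with 0 counts, so its size depends on the prior count.

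In LPS mice 0 of the 10 genes were called between the populations, with 0 at an unadjusted p under 0.05 and 0 by DESeq2. Over all genes 0.0301% were called. The within-mouse differences were small but regular for some genes. Such regularity was common: among the 5823 better expressed genes, 973 had the same sign in 5 of 5 LPS mice, in either direction. All 3 subunits were lower in the tdT+ than in the tdT- library of 5 of 5 mice, which held for 4.71% of all genes. The log2 differences within mice were -0.96 to -0.03 for Nfkb1, -0.50 to -0.16 for Nfkb2 and -0.73 to -0.28 for Relb, with fitted values of -0.39 ± 0.45, -0.33 ± 0.66 and -0.42 ± 0.50. Nfkbiz (0.32 to 0.73) and Tnfaip3 (0.08 to 0.39) were higher in the tdT+ library of 5 of 5 mice, as were 5.19% of all genes, with fitted values of 0.46 ± 0.30 and 0.24 ± 0.33. All 5 genes had an edgeR adjusted p of 1. That fit shares 1 estimate of spread over all 20 libraries, the scattered tdT- CTL group included, and leaves out the pairing. Its SE and p thus do not measure the spread of the within-mouse differences. Fitted on the LPS libraries alone, 39 of all genes were called instead of 5. None of the 20 alternatives called any of these 5 genes. Of 5 dendritic cell markers, Ccr7, a chemokine receptor of migrating cells, averaged 400.1 CPM in tdT- LPS and 6.88 CPM in tdT+ LPS and made up most of their sum (227 to 659 and 4.64 to 17.0 CPM). Flt3 (8.55 and 0.04 CPM) and Zbtb46 (8.02 and 3.03 CPM) were low, and Xcr1 and Clec9a were near 0 in both. Their part in these differences was not tested.

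**Figure D4:**
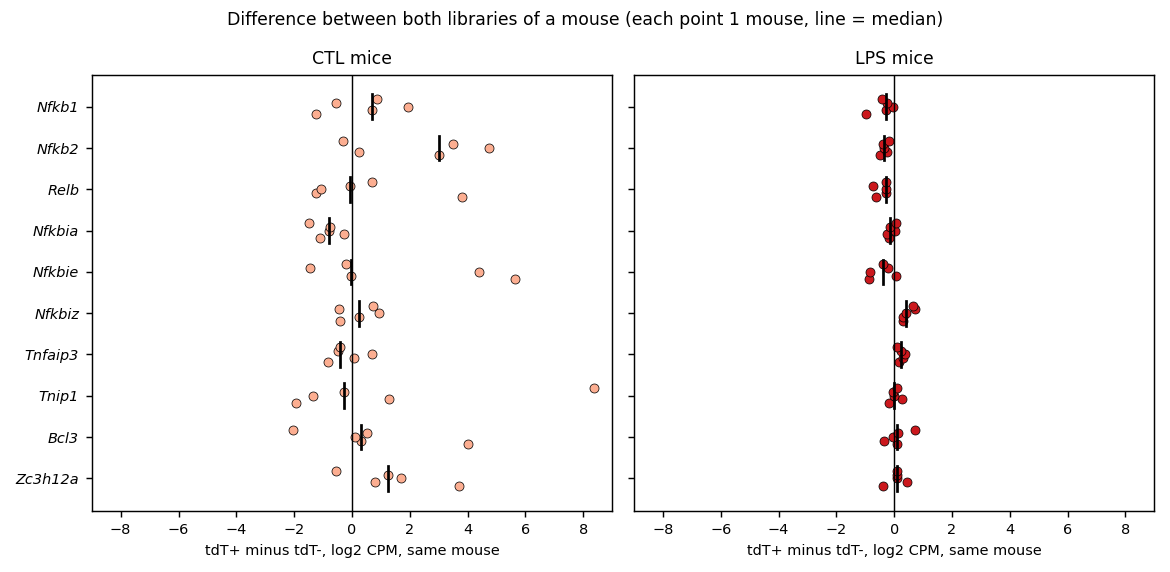
Log2 CPM of the tdT+ library minus that of the tdT- library of the same mouse, for each gene in CTL mice (left) and LPS mice (right), 1 point per mouse with a line at the median. In LPS mice all 5 points of Nfkb1, Nfkb2 and Relb lie below 0 and all 5 of Nfkbiz and Tnfaip3 above it, and in CTL mice only Nfkbia has all 5 on one side.

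The LPS effect did not pass the test of a difference between tdT+ and tdT- dCAMs for any of the 10 genes, beside 1.26% of all genes called. At an unadjusted p under 0.05 there was 1, again Nfkbia, with a difference of 0.80 ± 0.29 on the log2 scale (95% interval 0.19 to 1.41, edgeR adjusted p = 0.217), and DESeq2 called 0. For Tnfaip3 the difference was 0.44 ± 0.46 (95% interval -0.53 to 1.4) and for Nfkbiz 0.33 ± 0.43 (-0.56 to 1.22). These intervals do not show that the populations responded alike.

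The other genes of the pathway were taken from a list of 42, all tested. In tdT- dCAMs LPS raised 6 and lowered 1, and in tdT+ dCAMs it raised 4 and lowered 1, with a median log2 fold change of 0.077 and 0.099. Of all genes 7.2% were called higher and 4.27% lower in the former and 3.37% and 2.52% in the latter, so that the 1 lower gene is near the background, and the counts in the smaller groups of the list that follow rest on few genes. With the mouse as a block, limma called 16 higher in tdT- and 8 in tdT+ dCAMs, and 1 lower in each. Over all 16632 genes that fit called 4523 and 1571 in either direction, with medians moved to 0.76 and 0.13. Without the 2 tdT- CTL libraries the counts were 7 and 5 higher, with 1 lower in each, beside 2569 and 1574 of all genes. The subunits Rela (-0.48 ± 0.27 and -0.25 ± 0.27) and Rel (-0.65 ± 0.50 and -0.61 ± 0.50) were not called in either. Nfkbid, which encodes the nuclear IkB protein IkBNS, fell in both populations, from 401 ± 233 to 79.0 ± 38.2 CPM in tdT- (-2.34 ± 0.45, edgeR adjusted p = 0.00113) and from 325 ± 132 to 63.3 ± 11.8 CPM in tdT+ dCAMs (-2.36 ± 0.45, adjusted p = 0.00135). Nfkbiz and Nfkbid, both nuclear IkB genes, were thus called lower in both populations, while the third, Bcl3, was not called.

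Among ubiquitin-editing genes other than A20 and ABIN1, 3 of 9 rose in tdT- and 2 of 9 in tdT+ dCAMs. Tax1bp1, an adaptor of A20, rose from 122 ± 98.0 to 1125 ± 325 CPM in tdT- (3.20 ± 0.50, edgeR adjusted p = 0.000147) and from 190 ± 54.4 to 1229 ± 334 CPM in tdT+ dCAMs (2.69 ± 0.49, adjusted p = 0.000868). N4bp1, a suppressor of NF-kB signaling, rose from 26.8 ± 21.0 to 220 ± 56.6 CPM (3.04 ± 0.42, edgeR adjusted p = 3.57e-05) and from 56.8 ± 19.4 to 224 ± 42.2 CPM (1.98 ± 0.40, adjusted p = 0.00243). Otud7b, the deubiquitinase Cezanne, rose in tdT- dCAMs from at most 1.76 CPM to 4.21 to 19.3 CPM, with 2 of 5 CTL libraries at the floor. In tdT+ dCAMs it was not called, and its mean was lower after LPS (8.74 CPM) than in CTL (20.2 CPM). Of the kinases around IKK, 2 of 11 rose in tdT- and 1 of 11 in tdT+ dCAMs. Ikbke, the kinase IKKε, was at or under 3 counts in 4 of 5 CTL libraries of each population (at most 19.9 CPM in tdT- and 3.41 CPM in tdT+) and reached 258 to 433 and 301 to 535 CPM after LPS. Map3k8, the kinase TPL2, rose in tdT- dCAMs from 62.5 ± 42.8 to 195 ± 21.1 CPM (1.64 ± 0.44, edgeR adjusted p = 0.0172). Zc3h12c, a relative of Regnase-1, was at most 1.98 CPM in tdT- CTL and 11.3 to 31.4 CPM in tdT- LPS, and 1 of 6 RNA decay genes was called there. Of the 12 TRAF, cIAP and adaptor genes only Traf1 was called, in tdT+ dCAMs, where it rose from 23.9 ± 12.5 to 118 ± 44.2 CPM (2.30 ± 0.56, edgeR adjusted p = 0.012).

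Known NF-kB target genes, a list of 28, moved in both directions. Of these, LPS raised 8 and lowered 5 in tdT- dCAMs, and it raised 12 and lowered 3 in tdT+ dCAMs, beside the 7.2% and 4.27%, and the 3.37% and 2.52%, of all genes. The list had medians of 0.77 and 1.04 on the log2 scale. The block called 7 higher and 4 lower, and 6 higher and 2 lower, respectively. Without the 2 tdT- CTL libraries 7 were higher and 4 lower, and 14 and 3. The calls of these fits over all genes were given with the pathway list. Csf3, which encodes G-CSF, was at or under 3 counts in every CTL library and reached 228 ± 86.0 CPM in tdT- LPS and 342 ± 142 CPM in tdT+ LPS, at least 606-fold and 1009-fold higher than a level of 3 counts per library. Nos2, the inducible nitric oxide synthase, was likewise at the floor in every CTL library and at least 303-fold and 267-fold higher. Lcn2, the iron-binding lipocalin-2, was at most 2.77 CPM in CTL and 3963 to 8100 CPM in LPS. Sod2, the mitochondrial superoxide dismutase, rose by 5.13 ± 0.38 and 5.02 ± 0.38 on the log2 scale (edgeR adjusted p = 1.35e-08 and 1.3e-08). Neutrophil markers (8 of 8 in the table) summed to 69.3 to 209 CPM in CTL and 435 to 1030 CPM in LPS libraries. The higher sum came from S100a8, Csf3r and Mmp8 and, in tdT- dCAMs, Retnlg, whereas the neutrophil-defining Ly6g averaged at most 0.32 CPM in any group and S100a9 and Ngp had lower means in LPS than in CTL, at most 0.94 and 0.37 CPM. The part of these markers in the increases was not tested. Lower in both populations were Cd83, a maturation marker, from 3173 ± 964 to 322 ± 84.6 CPM in tdT- and from 2415 ± 988 to 218 ± 48.3 CPM in tdT+ dCAMs, Irf1, a transcription factor of the interferon response (-1.07 ± 0.26 and -1.35 ± 0.27), and the stress gene Gadd45b (-1.78 ± 0.33 and -1.43 ± 0.32). Tnf (-1.64 ± 0.36) and Icam1 (-1.21 ± 0.33) were called lower in tdT- dCAMs.

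**Figure D5:**
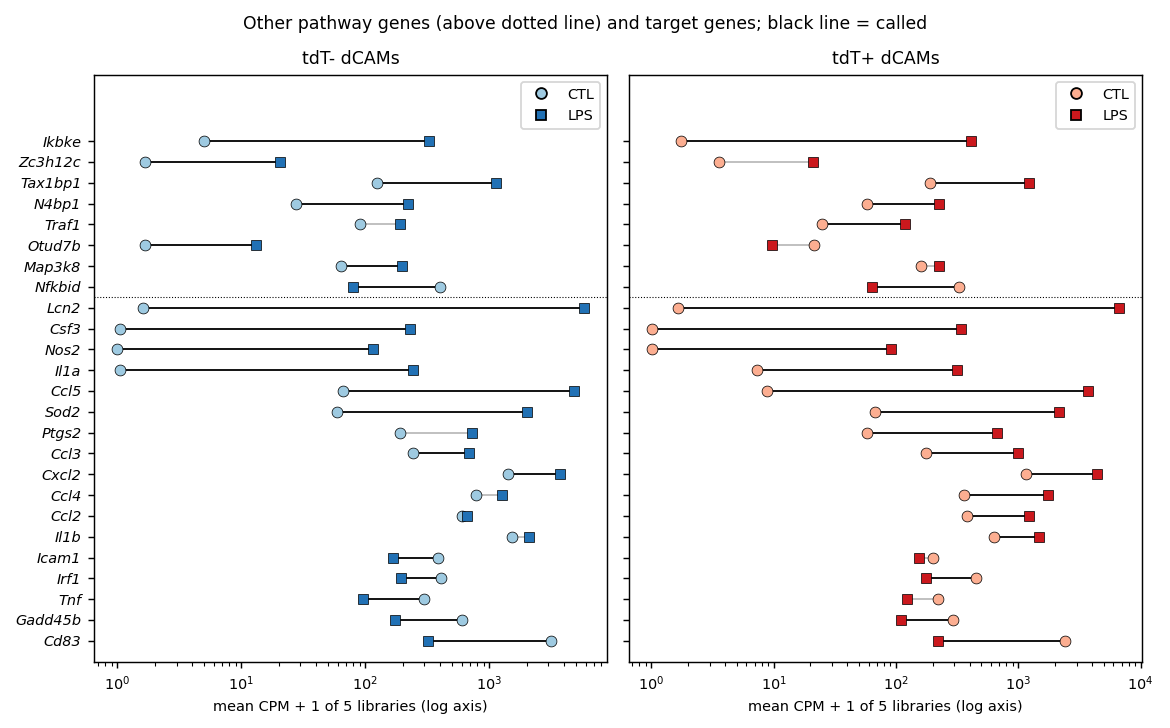
Mean CPM + 1 of 5 libraries on a log axis in CTL (circles) and LPS (squares) for the 8 other pathway genes and the 17 target genes called in at least 1 population, with a black line where the gene was called in that population and a grey line where it was not. Ikbke, Tax1bp1, N4bp1, Lcn2, Csf3, Nos2 and Sod2 lie further right after LPS in both populations, while Nfkbid, Irf1, Gadd45b and Cd83 lie further left in both.

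In CTL mice the comparison of tdT+ with tdT- dCAMs called 500 of all 16632 genes tested higher and 212 lower. Of the pathway list it called 1 gene higher (Otud7b, 20.2 ± 11.7 against 0.676 ± 0.742 CPM) and 2 lower. These were Traf1 (23.9 ± 12.5 against 90.3 ± 93.2 CPM, edgeR adjusted p = 0.0492) and Tnip3, a relative of Tnip1 (12.3 ± 12.8 against 135 ± 107 CPM, adjusted p = 0.0462). Among the targets Il1b was lower in tdT+ CTL (637 ± 238 against 1517 ± 558 CPM, edgeR adjusted p = 0.00339), as was Bcl2a1d (8.89 ± 2.89 against 46.9 ± 20.4 CPM, adjusted p = 0.0051), and Il1a was called higher, at 6.38 ± 7.60 CPM against at most 2 counts in tdT-. Quality weights called 0 of these targets and 1 pathway gene in each direction, as did the block for the pathway genes. Without the 2 tdT- CTL libraries 2 pathway genes were higher and 1 lower, and 1 target was higher and 4 lower. Monocyte markers (5 of 5 in the table) summed to 598 to 1086 CPM in tdT- CTL and 168 to 476 CPM in tdT+ CTL, and their part in these differences was not tested. In LPS mice edgeR and DESeq2 called 0 genes of either list between the populations, where edgeR called only 5 of all 16632 genes. At an unadjusted p under 0.05 in edgeR there were 0 of 42 and 5 of 28, with no share of all genes given beside them. The LPS effects differed between the populations for 0 genes of either list in edgeR, beside 209 of all genes, and for 1 of each in DESeq2 and without the 2 tdT- CTL libraries. At an unadjusted p under 0.05 in edgeR there were 4 of 42 and 4 of 28, again without a share of all genes.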

How the data were processed

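The deposited table held raw counts per gene for 20 libraries, which the authors made by aligning reads with STAR 2.7.11a and counting with featureCounts 2.0.6, per the labels. Groups were taken from the labels. The build behind the table was not settled, since the methods name more than 1, and positions come from GENCODE M21 (GRCm38) and RefSeq (GRCm38.p6) only to locate genes. The strand setting is not given in the sources used here. The low-input libraries were amplified by PCR without molecular identifiers, so floors cover counting error only.

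Genes with a total under 10 counts were removed, leaving 16632 of 33243. Counts were scaled by TMM and fitted over all 20 libraries, with 1 mean per group, by the quasi-likelihood test of edgeR 4.0.16 (R 4.3.3). Each gene had 1 estimate of spread shared by all 4 groups, the scattered tdT- CTL group included. An SE or p of a contrast is thus not a measure of the spread in the groups compared alone. The 5 contrasts were LPS against CTL in each population, tdT+ against tdT- in each treatment, and the difference of the LPS effects. A floor was 3 counts per library, and log2 CPM used a prior count of 2. All genes of the set were named, and of the other lists up to 6 called genes per direction and contrast in order of p. Levels per kilobase used the union of exons. Scripts were tested on simulated data. Alternatives were RLE scaling, other filters, DESeq2 1.42.0, limma 3.58.1 (voom with quality weights), the mouse as a block, fits on the compared libraries alone, the sex label as a covariate, thinned libraries and leaving out each mouse. The block was fitted by limma-voom for LPS against CTL. For the contrasts between populations and the difference of LPS effects it was a fixed mouse effect in edgeR. Both libraries of a mouse come from the same animal, which pairs them. Their deviations from the group means correlated at -0.0046 to 0.046 in CTL and 0.228 to 0.449 in LPS mice. The genes, lists and tests were chosen with earlier results of these data known.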

Additional observations from a re-analysis of the deposited data

Results flagged for a closer look

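The log2 CPM of each gene was examined for a library far from the other 4 of its group, over 40 sets of 5 libraries, and 4 sets exceeded the Dixon limit of 0.71. Chance alone flags about 1 set in 20. Nfkbiz accounted for 3 of them, with mouse 178 high in tdT- CTL (2358 CPM, gap of 0.746 of the range), mouse 60 low in tdT- LPS (263 CPM, 0.749) and the same mouse low in tdT+ LPS (436 CPM, 0.717). Tnfaip3 of mouse 60 was also the lowest of its group in both LPS populations (974 and 1152 CPM). Bcl3 was low in the tdT- CTL library of mouse 174 (7.28 CPM, 0.717), the library that also had the lowest Relb (6.22 CPM) and Nfkbie (1.37 CPM) of its group.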

How the results depend on the processing

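Over 20 alternatives (19 for the difference of LPS effects, which has no fit on the compared libraries alone), 990 values of single genes gave 901 with the same direction and call, 18 that lost a call, 17 that gained one and 54 with the other sign, none of the last from a called gene. Low counts limit the tdT- CTL group most, though the smallest total was that of a tdT+ CTL library, and thinning all libraries to one total left 1967 calls over all genes for LPS in tdT- dCAMs. The alternative without the tdT- CTL libraries of mice 174 and 179 was chosen after seeing the data. The median of all genes (0.022 for LPS in tdT- dCAMs, 0.0084 in tdT+, -0.005 between populations in CTL mice, 0.027 for the difference of LPS effects) moved by over 0.1 in tdT- dCAMs with quality weights (to 0.68), the mouse block (0.76), the sex label (0.15), those 2 libraries left out (0.14) and without CTL mouse 175 (0.22) or 178 (0.19), in tdT+ dCAMs with quality weights (0.11) and the block (0.13), between populations in CTL mice with these 2 fits (0.49 and 0.54), and for the difference with these 2 fits (-0.58 and -0.64), without mouse 175 (-0.11) or 178 (-0.08) and without the 2 libraries (-0.075).

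Genes called higher in tdT- dCAMs after LPS numbered 1, against 3 by DESeq2, 0 with quality weights, 0 with the compared libraries alone, 4 with the mouse as a replicate block, 2 without the 2 libraries and 0 to 2 without a mouse. Genes called lower there numbered 0 to 1 without a mouse. In tdT+ dCAMs 2 were higher with quality weights, with the compared libraries alone and without the 2 libraries, 1 to 2 were higher without a mouse and 0 to 1 lower. Between populations in CTL mice 1 was higher without the 2 libraries, and 0 to 1 without a mouse. The block changed the calls of no other comparison of these genes.

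Over all genes tested, calls numbered 1907 for LPS in tdT- dCAMs (891 with the compared libraries alone, 4523 with the block, 2569 without the 2 libraries), 979 in tdT+ dCAMs (up to 3155 with quality weights; 2262 alone, 1571 with the block, 1545 by DESeq2, 1574 without the 2 libraries), 712 between populations in CTL mice (7 alone, 369 with quality weights, 1644 by DESeq2, 1183 without the 2 libraries, 1352 without mouse 175), 5 in LPS mice (39 alone, 60 by DESeq2, 137 with quality weights, 10 without the 2 libraries, 3 with the block, the sex label or thinning, 1 to 6 without a mouse) and 209 for the difference of LPS effects (83 with the block, 744 by DESeq2, 408 without the 2 libraries, 640 without CTL mouse 175, 344 without 178, 339 without 179 and 63 to 76 without an LPS mouse).

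Signs turned only for log2 values of uncalled genes. For LPS in tdT- dCAMs, Bcl3 gave 0.31 with quality weights, 0.42 with the block and -0.35 to 0.23 without a mouse, and Relb gave -0.28 without the 2 libraries and -0.018 to 0.70 without a mouse. For LPS in tdT+ dCAMs, Relb gave -0.025 with RLE scaling and -0.025 by DESeq2, -0.017 with no filter, -0.054 with filterByExpr, -0.096 with the sex label, -0.022 after thinning, -0.012 without the 2 libraries and -0.15 to 0.13 without a mouse, and Bcl3 gave 0.25 with the block and -0.30 to 0.13 without a mouse. Between populations in CTL mice, Tnip1 gave 0.98 with quality weights, 0.25 with the block, 0.33 without the 2 libraries and -1.17 to 0.57 without a mouse, Nfkbie -0.0093 with those libraries alone, -0.28 without the 2 libraries and -0.36 to 0.92 without a mouse, Relb 0.23 with the block and -0.57 to 0.35 without a mouse, and Nfkbiz -0.13 without the 2 libraries and -0.054 to 0.50 without a mouse. Without a mouse the same contrast gave -0.19 to 0.68 for Bcl3, -0.28 to 0.58 for Nfkb1 and -0.37 to 0.0086 for Tnfaip3, and that in LPS mice gave -0.019 to 0.092 for Tnip1, -0.021 to 0.21 for Zc3h12a and -0.013 to 0.24 for Bcl3. For the difference of LPS effects, Tnip1 gave -0.91 with quality weights, -0.23 with the block, -0.30 without the 2 libraries and -0.54 to 1.20 without a mouse, Relb 0.27 without the 2 libraries and -0.75 to 0.15 without a mouse, Bcl3 0.055 and -0.53 to 0.34, and Nfkbiz -0.022 to 0.51 without a mouse. The cause of these shifts was not tested.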

Other observations

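The genes whose centered log2 CPM lay nearest to the median profile of the 10 genes over the 20 libraries were Sh3glb1 (root mean square difference 0.261), Hnrnpf (0.298), Clptm1 (0.337), Ssr4 (0.356) and Atp1b3 (0.371), out of 5813 genes with a median of 1.21. Their LPS log2 fold changes were 0.41 to 0.70 in tdT- and 0.28 to 0.60 in tdT+ dCAMs. Tnfaip3 to Nfkbia, per kilobase of exon, gave ratios of 0.0566 to 0.214 in the 10 CTL and of 0.27 to 0.49 in the 10 LPS libraries, a measure chosen after the values were seen.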
